A study of Mus musculus with 31 samples.

Results

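The genes that encode Toll-like receptors and their co-receptor Cd14 were examined in Ly6C-high monocytes, the classical inflammatory monocytes of the mouse. The set holds 10 genes, taken by their symbols out of the 24411 entries of the deposited count table: 5 receptors of the cell surface (Tlr1, Tlr2, Tlr4, Tlr5 and Tlr6), 4 receptors of the endosome (Tlr7, Tlr8, Tlr9 and Tlr13) and Cd14. RNA-seq was available for 9 libraries of C57BL/6J mice with no stated genetic change. They fall into 3 groups of 3 libraries, namely blood monocytes of healthy mice (healthy blood), blood monocytes of mice carrying subcutaneous Lewis lung carcinoma, a transplanted lung tumor cell line (LLC blood), and monocytes taken out of such tumors (LLC tumor). The labels do not say whether LLC blood and LLC tumor libraries came from the same mice. In all 3 groups the cells had been sorted as positive for CD11b, negative for Ly6G, high for Ly6C and negative for MHC class II. The labels state neither the age of the mice nor whether animals were pooled, and LLC is a single transplanted line. All 10 genes passed the filter on low counts, with between 80 and 22260 reads per gene and library.

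Toll-like receptors are innate immune sensors of microbial and damage-derived molecules. Receptors at the surface recognise components of bacterial walls and flagella, whereas receptors in the endosome recognise nucleic acids that the cell has taken up. On binding they recruit adaptors, most of them Myd88, which pass the signal through Irak kinases and the IKK complex to NF-kB and interferon regulatory factors. Monocytes carry many of these receptors and meet their ligands both in blood and in damaged tissue.

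Stretches upstream of 4 of the receptors are shown first, because Tlr5 had the largest change of the 9 receptors in each comparison and the 3 endosomal genes took different courses. The set of RefSeq promoter windows used here (build GRCm38.p6, the assembly also called mm10) held 7 of the 10 genes, in 9 entries by transcript start. It had no entry for Tlr4, Tlr7 and Cd14. Only bases outside the RefSeq span of each gene are printed: 214 bases for Tlr5 (chr1:182954538-182954751, plus strand) and 250 bases for Tlr8 (chrX:167264330-167264579, minus strand), Tlr9 (chr9:106222348-106222597, plus strand) and Tlr13 (chrX:106143025-106143274, plus strand). Each runs from 5′ to 3′ on the strand of its gene, and capitals mark the motif matches described after the sequences.
Tlr5: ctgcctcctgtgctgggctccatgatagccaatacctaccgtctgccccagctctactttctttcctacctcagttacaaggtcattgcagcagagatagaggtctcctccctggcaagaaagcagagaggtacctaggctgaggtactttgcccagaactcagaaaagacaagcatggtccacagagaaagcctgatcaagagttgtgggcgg
Tlr8: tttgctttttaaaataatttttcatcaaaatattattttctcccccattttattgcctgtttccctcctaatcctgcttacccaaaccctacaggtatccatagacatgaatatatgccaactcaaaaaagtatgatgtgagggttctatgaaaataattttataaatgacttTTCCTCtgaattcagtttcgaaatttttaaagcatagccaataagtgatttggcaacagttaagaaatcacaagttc
Tlr9: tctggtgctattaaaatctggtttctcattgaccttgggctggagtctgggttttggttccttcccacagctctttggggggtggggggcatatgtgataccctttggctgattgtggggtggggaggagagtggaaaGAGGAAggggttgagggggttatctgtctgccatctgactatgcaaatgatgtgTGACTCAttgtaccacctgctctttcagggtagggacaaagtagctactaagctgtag
Tlr13: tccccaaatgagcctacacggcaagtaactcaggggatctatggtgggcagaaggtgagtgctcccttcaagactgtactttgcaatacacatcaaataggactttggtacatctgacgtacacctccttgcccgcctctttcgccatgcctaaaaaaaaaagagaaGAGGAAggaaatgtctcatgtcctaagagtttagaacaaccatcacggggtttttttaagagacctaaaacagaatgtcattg

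Both strands of the 250 bases before each start were searched for short letter patterns of factors that act in myeloid cells, namely an ETS pattern (GAGGAA), an AP-1 pattern (TGANTCA), a hypoxia response element core (ACGTG), a kappaB pattern (GGG, any 2 bases, TTTCC) and a pattern of the interferon-stimulated response element (GAAA, any 2 bases, GAAA). The ETS letters stood upstream of Tlr8, Tlr9 and Tlr13 and at 1 of the Tlr1 starts, that is in 4 of the 9 entries, against 23.3% of all 32851 RefSeq promoter windows of this length. Tlr9 also held the AP-1 letters, between 58 and 52 bases before the start, a pattern found in 6.75% of all windows. The kappaB pattern in this exact form, present in 1.41% of all windows, was in none of the 9 entries. Looser forms of it were not searched. The window of Tlr2 holds the similar letters ggggaattccc, which the form used here does not cover. Tlr2 and Tlr5 matched none of the 5 patterns as written in these windows. At 1 start of Tlr6 the interferon pattern matched at 2 overlapping places (2.98% of all windows hold it), and at the other start of Tlr1 the hypoxia letters matched on both strands at overlapping places (16.6% of all windows). These are matches of letters only.

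Total counts per library ranged from 10457478 to 20706410. Levels are given as CPM, that is counts scaled to a common library size with the TMM factors of edgeR, in the order of libraries 1, 2 and 3 of a group. The sorting marker Itgam, which encodes CD11b, was present in all libraries and averaged 891 CPM in healthy blood, 1366 in LLC blood and 3754 in LLC tumor. Ly6c2 was at 1521 to 1672 CPM in healthy blood, 1030.1 to 1176 in LLC blood, against 273 to 592 in LLC tumor. Of the MHC class II genes, H2-Aa averaged 178, 51.4 and 36.7 CPM in these groups, H2-Ab1 159.9, 65.4 and 74.3, and H2-Eb1 65.9, 18.0 and 23.5. Of the 6 sorting markers used, 1 was called higher and 3 lower in LLC blood against healthy blood (14% and 9.61% of all tested genes). Ly6g was not used here. LLC tumor 1 stood apart: its TMM factor was 0.798, against 0.968 to 1.07 in the other 8 libraries, and it held the highest tumor value of 9 of the 10 genes, where 45.0% of all tested genes had their highest tumor value in it. Scaled by library totals, these numbers were 8 of 10 genes and 21.1% of all tested genes. Summed markers of other cell types also moved with the groups. The 10 genes of tumor cells, fibroblasts and endothelium summed to 17.5 to 27.4 CPM in healthy blood, 14.3 to 395 in LLC blood (the high value in LLC blood 1) and 1154 to 3861 in LLC tumor. The 7 macrophage genes summed to 1242 to 1446, 696 to 714 and 1247 to 2411 CPM, a sum of which Apoe and Adgre1 made up most. Other members of that list moved further from LLC blood to LLC tumor: C1qa had means of 1.67 and 209 CPM, C1qb of 4.77 and 262, C1qc of 1.95 and 191 and Mertk of 0.85 and 22.4. There 5 of the 7 were called higher, as were 29.6% of all tested genes. The 10 neutrophil genes used summed to 171 to 346, 287 to 719 and 213 to 392 CPM. Mmp8 alone averaged 167, 268 and 166 CPM of this sum. The 7 genes of Ly6C-low monocytes summed to 3457 to 3539, 3062 to 3820 and 1135 to 1729. The T cell, B cell and NK cell lists were highest on average in healthy blood, at 30.1 to 132, 16.6 to 157 and 157 to 390.3 CPM, with 2.85 to 4.36, 9.72 to 13.1 and 22.5 to 40.3 in LLC blood and 1.24 to 1.86, 1.87 to 2.15 and 1.34 to 3.81 in LLC tumor, where 3 of the 5 B cell markers used were at 0. Almost all of the B cell sum in LLC blood and LLC tumor was Cd79b, which averaged 10.4 and 1.92 CPM there. Platelet markers summed to 7.40 to 18.9 CPM in healthy blood, 3.18 to 6.22 in LLC blood and 143 to 278 in LLC tumor, where almost all of it was Pf4 and Ppbp. Erythroid markers summed to 215 to 629, 160.0 to 862 and 1.36 to 3.46 CPM. Conventional dendritic cell markers summed to 118 to 139, 53.0 to 79.9 and 123 to 287 CPM, the tumor value being mostly Itgax, while Flt3 was lowest there at 2.94 to 3.28. Among plasmacytoid dendritic cell genes, the defining Siglech was at 2.55 CPM or below in every library and Klk1 at or near 0. The part of these other cells in the results was not tested, and the amount of RNA per cell and the number of cells carrying it cannot be told apart in such bulk libraries.

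In LLC blood against healthy blood, 5 of the 10 genes rose and none fell (edgeR quasi-likelihood test, adjusted p under 0.05 over all genes). Of all 12337 tested genes, 23.6% were called, 14% higher and 9.61% lower. The genes that rose were Tlr1, Tlr4, Tlr5 and Tlr6 of the surface and Tlr8 of the endosome. Between LLC tumor and LLC blood, 9 of 10 were called where 61.3% of all tested genes were: Tlr2, Tlr4, Tlr5 and Cd14 rose (29.6% of all tested genes did) and Tlr1, Tlr6, Tlr7, Tlr8 and Tlr9 fell (31.7%). In LLC tumor against healthy blood, 7 of 10 were called where 66.5% of all tested genes were, with Tlr2, Tlr4, Tlr5, Tlr8 and Cd14 higher (33.5% of all tested genes) and Tlr7 and Tlr9 lower (33%). Counted by libraries that did not overlap between the groups, whatever the test said, the numbers were 7 of 10 in the first comparison (51.8% of all tested genes), 9 of 10 in the second (65.8%) and 8 of 10 in the third (69.8%). The 3 comparisons share libraries, so they are not independent of each other. The count in LLC tumor against healthy blood is near the share over all genes, and with 10 genes the other counts are described, not read as particular to the set.

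**Figure D1:**
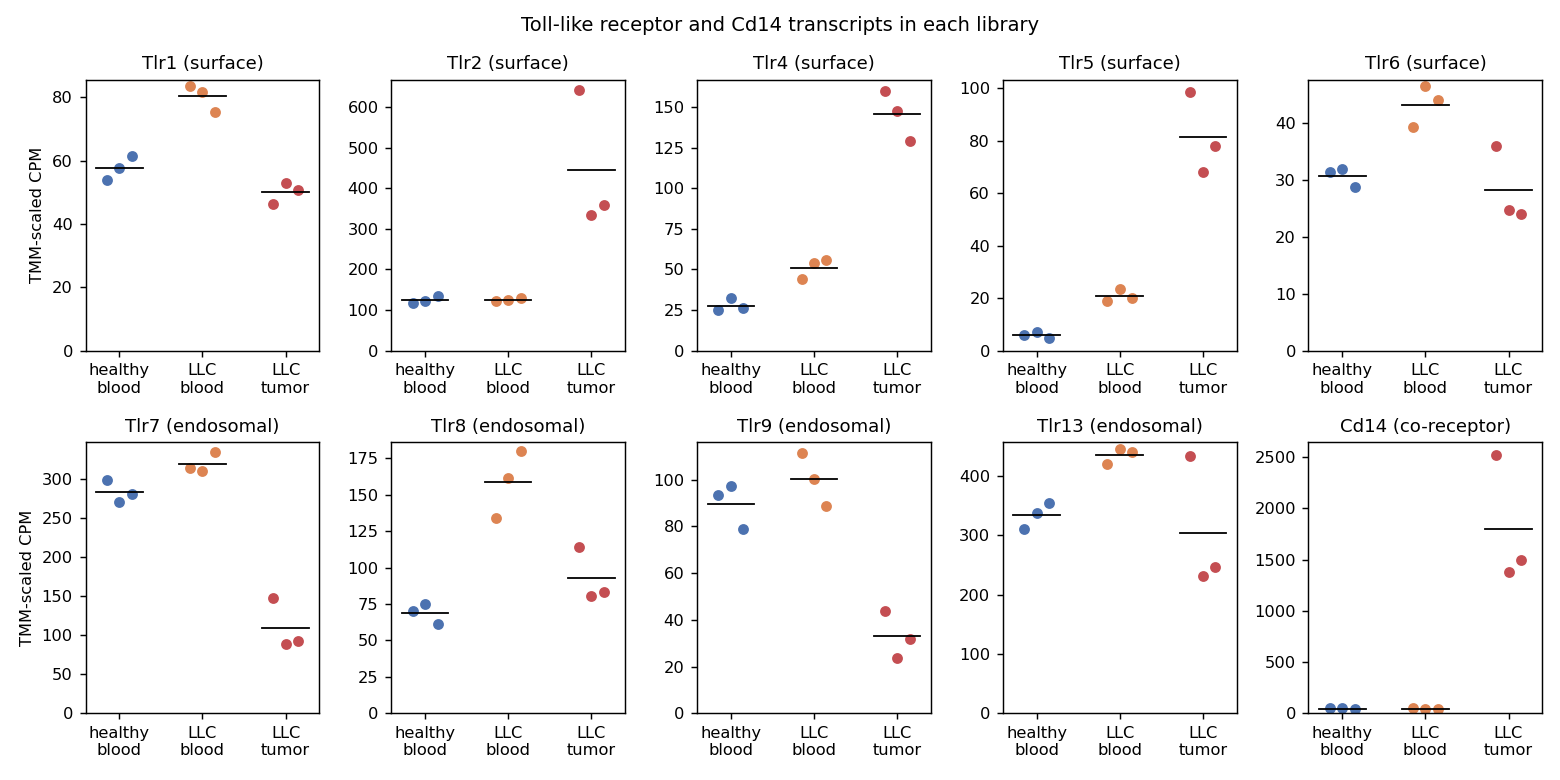
Level of each of the 10 genes in each library (TMM-scaled CPM, linear axis from 0); points are libraries 1 to 3 from left to right within each of the 3 groups, and bars are group means. Cd14, Tlr2, Tlr4 and Tlr5 are highest in LLC tumor, Tlr7 and Tlr9 lowest there, and LLC tumor 1 lies above the other tumor libraries for 9 of the 10 genes.

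Among the surface receptors, Tlr5, the receptor for bacterial flagellin (chr1:182954752-182976044), changed most. Its level was 5.88, 6.99 and 4.75 CPM in healthy blood, 18.9, 23.4 and 19.9 in LLC blood, against 98.5, 67.9 and 78.0 in LLC tumor. No library of a group overlapped with those of another, and every LLC blood library lay between the healthy and the tumor libraries. The log2 fold change was 1.82 ± 0.18 (SE, n = 3 and 3; 3.53-fold, edgeR adjusted p = 0.000276) in LLC blood against healthy blood and 1.97 ± 0.17 (3.92-fold, adjusted p = 9.92e-06) in LLC tumor against LLC blood. Against healthy blood the tumor level was 13.8-fold higher (adjusted p = 3.74e-07). Healthy blood held few reads of this gene, with 80 in the lowest library.

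Tlr4, the receptor that signals on bacterial lipopolysaccharide (chr4:66827551-66846581), took a similar course at a smaller size. It was at 24.8, 32.4 and 26.2 CPM in healthy blood, 43.9, 53.8 and 55.9 in LLC blood, against 160.0, 147 and 129 in LLC tumor, with no overlap between any groups. The rise was 0.88 ± 0.13 (log2) in LLC blood against healthy blood (edgeR adjusted p = 0.00208) and 1.50 ± 0.13 in LLC tumor against LLC blood (adjusted p = 1.19e-05). LLC tumor 1 was the highest tumor library, but on library totals LLC tumor 2 was, with 147 CPM against 128 in LLC tumor 1. Over the 9 libraries Tlr4 and Tlr5 correlated at Pearson r = 0.986 on the scale of log2(CPM + 1), a description that rests largely on the 3 group levels.

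Tlr2, which senses bacterial lipoproteins as a partner of Tlr1 or Tlr6 (chr3:83836272-83841824), did not follow Tlr4 and Tlr5 in blood. Its level was 119, 123 and 134 CPM in healthy blood and 122, 124 and 129 in LLC blood, and the groups overlapped. There the log2 fold change was -0.00 ± 0.21 (edgeR adjusted p = 0.996). LLC tumor held 641, 334 and 359.8 CPM, all above every blood library, with LLC tumor 1 well above the other two. Against LLC blood the rise was 1.83 ± 0.22 (log2; 3.56-fold, adjusted p = 7.88e-05), and 1.50 without LLC tumor 1, with the call kept.

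The partners of Tlr2 moved against it in the tumor. Tlr1, which joins Tlr2 to bind triacylated lipoproteins (chr5:64924680-64933600), was at 54.0, 57.7 and 61.4 CPM in healthy blood, 83.7, 81.8 and 75.4 in LLC blood, against 46.5, 52.9 and 50.8 in LLC tumor. Its LLC blood libraries were the highest of the 9 and its tumor libraries the lowest. It rose by a log2 fold change of 0.48 ± 0.08 in LLC blood (edgeR adjusted p = 0.00361) and fell by 0.68 from LLC blood to LLC tumor (SE 0.08, adjusted p = 8.97e-05). Against healthy blood the tumor level differed by -0.20 ± 0.08, which was not called (adjusted p = 0.0535), although 8 of 20 alternatives called it.

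Tlr6, which joins Tlr2 to bind diacylated lipoproteins (chr5:64953092-64970942), lies next to Tlr1 on the same chromosome. It was at 31.5, 31.9 and 28.8 CPM in healthy blood, 39.3, 46.5 and 44.1 in LLC blood, against 36.1, 24.7 and 24.0 in LLC tumor. LLC blood lay above both other groups, and LLC tumor overlapped with healthy blood, LLC tumor 1 being above it and the other tumor libraries below. Scaled by library totals, LLC tumor 1 was at 28.8 CPM, below the 29.7 to 33.1 of healthy blood. The log2 fold change was 0.50 ± 0.15 in LLC blood against healthy blood (edgeR adjusted p = 0.0394) and -0.62 ± 0.15 in LLC tumor against LLC blood (adjusted p = 0.00566). The first call was lost, at values of 0.44 to 0.51, on leaving out any healthy library, LLC blood 2 or LLC blood 3. Tumor against healthy blood was not called at -0.12 (adjusted p = 0.491), but 3 of 20 alternatives called it. Among them were the model without LLC tumor 1 at -0.36 (adjusted p = 0.00554) and library totals at -0.31 (adjusted p = 0.0319).

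Tlr1 and Tlr6 are near-identical in part of their sequence, and both had estimated counts that were not whole in all 9 libraries, as happens where reads are shared between genes, so each gene's own value is uncertain. Their sum does not depend on that split. It was 88.4 ± 2.60 CPM in healthy blood, 124 ± 4.41 in LLC blood, against 78.3 ± 3.94 in LLC tumor (mean ± SD, n = 3). For the sum, the log2 fold change was 0.48 (edgeR adjusted p = 0.00119) in LLC blood against healthy blood, -0.66 (adjusted p = 2.67e-05) in LLC tumor against LLC blood and -0.17 (adjusted p = 0.0405) in LLC tumor against healthy blood.

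Of the endosomal receptors, Tlr7 and Tlr9 were lower in LLC tumor than in either blood group. Tlr7, a receptor for single-stranded RNA (chrX:167303380-167330574), was at 299, 271 and 280.4 CPM in healthy blood, 313, 310.5 and 334 in LLC blood, against 148, 88.8 and 92.4 in LLC tumor. The 2 blood groups did not overlap, but the difference was not called (0.17 ± 0.17, edgeR adjusted p = 0.505). All tumor libraries lay well below the blood libraries. The fall from LLC blood to LLC tumor was 2.91-fold (log2 fold change -1.54 ± 0.18, adjusted p = 5.72e-05), and from healthy blood to LLC tumor it was 2.58-fold.

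Tlr9, the receptor for DNA with unmethylated CpG (chr9:106222598-106226876), was at 93.2, 97.4 and 78.8 CPM in healthy blood, 112, 100.3 and 88.8 in LLC blood, against 44.0, 23.8 and 31.8 in LLC tumor. The blood groups overlapped and the difference between them was not called (0.16 ± 0.19, edgeR adjusted p = 0.590). All 3 tumor libraries lay below every blood library, by 3.03-fold on average against LLC blood (log2 fold change -1.60 ± 0.20, adjusted p = 9.7e-05). Among plasmacytoid dendritic cell markers, Siglech averaged 0.23 CPM in LLC blood and 0.059 in LLC tumor and Ccr9 0.55 and 0.32, whereas Bst2 averaged 73.6 and 87.5 and Tcf4 88.2 and 98.3. Of the 7 genes of Ly6C-low monocytes, 5 fell in the same comparison, where 31.7% of all tested genes did. The part of either cell type in the fall was not tested. Tlr7 and Tlr9 had the closest course of any pair of endosomal receptors over the 9 libraries, at Pearson r = 0.979.

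Tlr8, a close relative of Tlr7 that neighbours it in the genome (chrX:167241123-167264329), was the endosomal gene that rose in LLC blood. It was at 70.1, 74.7 and 61.4 CPM in healthy blood, 134, 161 and 179.8 in LLC blood, against 114, 80.5 and 83.1 in LLC tumor. The tumor libraries lay between the other groups, with no overlap. The log2 fold change was 1.21 ± 0.16 (2.31-fold, edgeR adjusted p = 0.000964) in LLC blood against healthy blood and -0.78 ± 0.16 (adjusted p = 0.00187) in LLC tumor against LLC blood. The tumor level stayed above that of healthy blood by 0.43 ± 0.16 (adjusted p = 0.0343), but this call was lost without healthy blood 1 (0.43), healthy blood 3 (0.34), LLC blood 2 (0.39) or LLC tumor 1 (0.23, adjusted p = 0.114), at 0.24 when scaled by library totals, and in 10 of 21 alternatives in all.

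Tlr13, which senses bacterial ribosomal RNA (chrX:106143275-106160493), was the member that no comparison called. It was at 311, 337 and 354 CPM in healthy blood, 419.9, 446 and 440.0 in LLC blood, against 435, 232 and 247 in LLC tumor. The blood groups did not overlap, at a log2 fold change of 0.38 ± 0.21 (edgeR adjusted p = 0.217). LLC tumor 1 lay within the range of LLC blood, whereas the other tumor libraries lay below all blood libraries. Scaled by library totals, LLC tumor 1 was at 347 CPM, below the 442 to 476 of LLC blood. The tumor values thus turned on this library and on its scaling. LLC tumor against LLC blood was -0.52 ± 0.21 (adjusted p = 0.0551), and without LLC tumor 1 it was -0.84 (adjusted p = 5.32e-06). In all, 6 of 21 alternatives called it lower. With LLC tumor 1 kept, edgeR did so on library totals (-0.75, adjusted p = 0.00119) and with upper-quartile factors (-0.58, adjusted p = 0.0183). Against healthy blood the value was -0.13 ± 0.21 (adjusted p = 0.587), and without LLC tumor 1 it was -0.51 (adjusted p = 0.000116). In LLC blood against healthy blood, 4 of 21 alternatives called the gene higher: the model without LLC tumor 1 (0.33, adjusted p = 0.00252), only the 6 libraries compared (0.37, adjusted p = 0.00223), these 6 with a replicate block (0.37, adjusted p = 0.00274) and limma-voom (0.39, adjusted p = 0.00339).

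Tlr7, Tlr8 and Tlr13 lie on the X chromosome. Xist, the RNA of the silenced X chromosome of female cells, was at 331 to 341 CPM in healthy blood, 703 to 828 in LLC blood, against 1101 to 1333 in LLC tumor. Its part in the values of the 3 receptors was not tested.

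Cd14, the membrane-anchored co-receptor that hands lipopolysaccharide to Tlr4 and also serves other receptors of the family, had the largest change of the set. It was at 50.5, 48.1 and 39.5 CPM in healthy blood and 48.8, 46.9 and 45.0 in LLC blood, and these groups overlapped (log2 fold change 0.03 ± 0.22, edgeR adjusted p = 0.947). LLC tumor held 2518, 1379 and 1492 CPM, far above all 6 blood libraries. The rise from LLC blood to LLC tumor was 38.3-fold (log2 fold change 5.26 ± 0.25, adjusted p = 3.92e-07), and from healthy blood it was 39.1-fold. Without LLC tumor 1, the highest library, the log2 fold change was 4.96 and remained called. The macrophage markers C1qa, C1qb, C1qc and Mertk rose in the same comparison by the values given above. The summed macrophage markers were also highest in LLC tumor 1, whereas the summed tumor cell, fibroblast and endothelial markers were lowest there among the tumor libraries, at 1154 CPM; their part in the rise was not tested. Over the 9 libraries Cd14 correlated with Tlr2 at r = 0.977 and with Tlr7 at r = -0.93, descriptions that rest on the gap between tumor and blood.

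**Figure D2:**
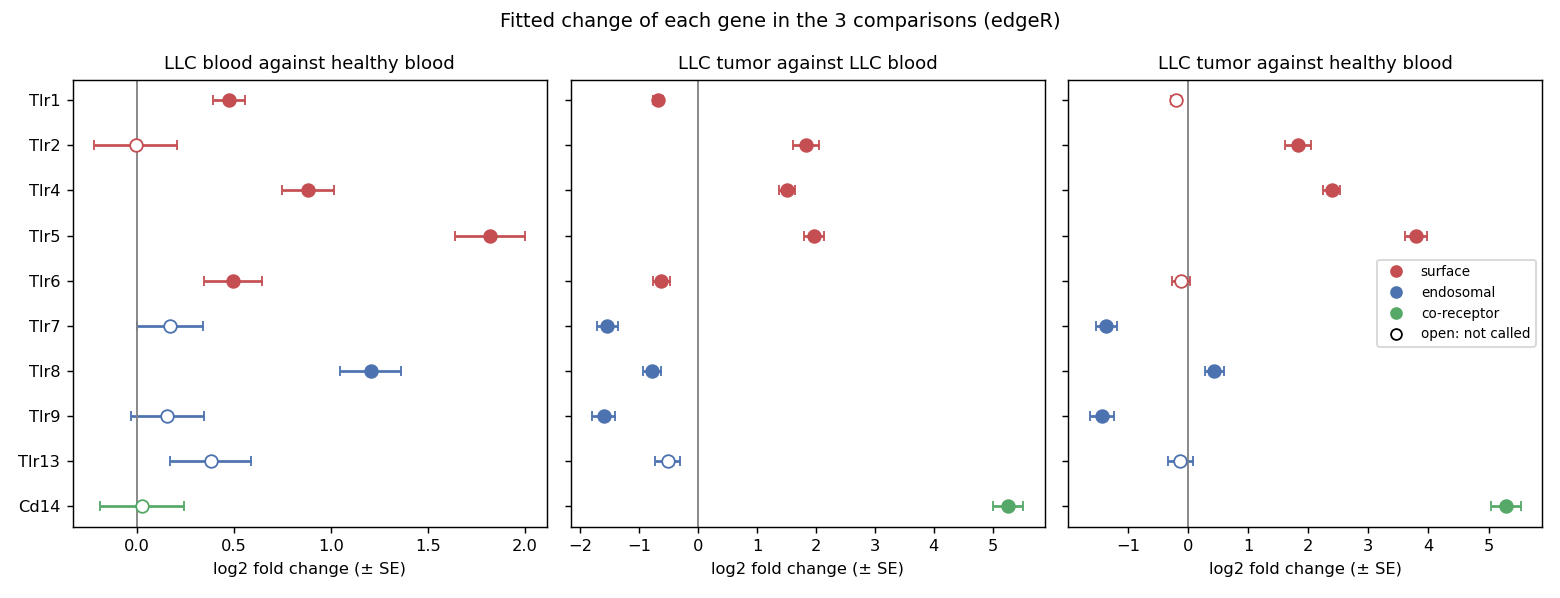
Log2 fold change of each gene in the 3 comparisons, fitted with edgeR on all 9 libraries; points are the fitted values, bars are ± SE, filled points were called at adjusted p under 0.05 and open points were not, and colors mark surface receptors, endosomal receptors and Cd14. In LLC tumor against LLC blood, Cd14 stands at 5.26 while the 4 endosomal receptors lie between -1.60 and -0.52.

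The classes were then set side by side. In LLC blood against healthy blood, 4 of the 5 surface receptors and 1 of the 4 endosomal receptors rose, where 14% of all tested genes did, and their medians were 0.50 and 0.28 on the log2 scale beside -0.01 over all tested genes. The surface count holds both Tlr1 and Tlr6, whose split of reads is uncertain, and the Tlr6 call was lost on leaving out single libraries. With Tlr1 and Tlr6 summed into 1 entry, 4 members were called in place of 5. The 1 gene of 4 is not read as a result about the endosomal class. Markers of other cells moved with this comparison. Of those tested, 4 of 10 neutrophil markers were called higher in LLC blood. Called lower were 6 of 6 NK cell, 5 of 5 T cell, 4 of 7 macrophage and 3 of 5 conventional dendritic cell markers, where 9.61% of all tested genes were. Their part was not tested. In LLC tumor against LLC blood, 3 surface receptors rose and 2 fell (median 1.50), and 3 of the 4 endosomal receptors fell with none rising (median -1.16), where 29.6% of all tested genes rose and 31.7% fell, beside a median of -0.03 over all tested genes. For the tumor against healthy blood the medians were 1.83 and -0.75, beside -0.00. The surface class was thus not of one direction in LLC tumor against LLC blood: Tlr2, Tlr4 and Tlr5 rose while Tlr1 and Tlr6 fell. With so few genes a class, no test between the classes was made.

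A ratio within each library does not depend on the scaling between libraries. The surface receptors summed to 247 ± 11.1 CPM in healthy blood, 320.5 ± 11.5 in LLC blood, against 750.3 ± 201 in LLC tumor (mean ± SD, n = 3), and the endosomal receptors to 776 ± 3.74, 1013 ± 32.4 and 539.9 ± 175. Both sums were higher in LLC blood than in healthy blood. The log2 of the surface sum over the endosomal sum was -1.72, -1.63 and -1.60 in healthy blood, -1.67, -1.63 and -1.68 in LLC blood, against 0.41, 0.56 and 0.50 in LLC tumor. The blood groups overlapped, with means of -1.65 ± 0.06 and -1.66 ± 0.03, and the tumor libraries lay 2.15 above LLC blood. LLC tumor 1, which had the highest sum in both classes, had the lowest of the tumor ratios. The absolute value of the ratio depends on the lengths of the transcripts, so only its differences are read. These too depend on the weight of each gene in its sum where genes of a class move differently. Leaving out Tlr2 and Tlr13, the genes with the largest share of reads in their class, gave a difference of 1.96 between LLC tumor and LLC blood, and 0.29 between LLC blood and healthy blood in place of -0.01.

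**Figure D3:**
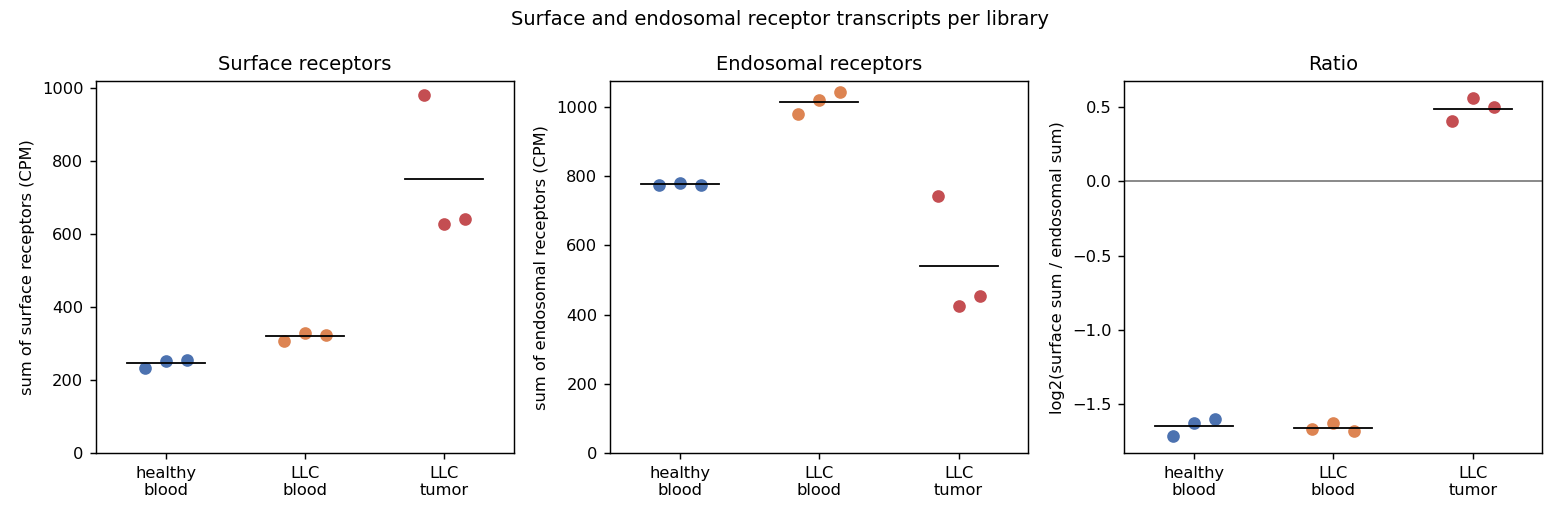
Summed CPM of the 5 surface receptors (left), of the 4 endosomal receptors (middle) and the log2 of their ratio (right); points are libraries 1 to 3 from left to right in each group and bars are group means. The ratio lies between -1.72 and -1.60 in the 6 blood libraries and between 0.41 and 0.56 in the tumor libraries.

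The share of reads within each class differed between groups. Tlr2 made up 50.6% ± 1.86 of the surface reads in healthy blood, 39.0% ± 1.20 in LLC blood and 58.2% ± 6.28 in LLC tumor (mean ± SD, n = 3). Tlr5 made up 2.38% ± 0.471, 6.47% ± 0.554 and 11.0% ± 1.07, with no overlap between groups. Tlr1 was at 7.03% ± 2.00 and Tlr6 at 3.79% ± 0.145 in LLC tumor, against 25.1% ± 2.01 and 13.5% ± 0.691 in LLC blood. Among endosomal reads, Tlr8 was at 8.86% ± 0.852 in healthy blood, 15.6% ± 1.79 in LLC blood and 17.6% ± 1.88 in LLC tumor. Tlr7 was at 36.5% ± 1.99, 31.5% ± 0.890 and 20.4% ± 0.458. These shares are of reads within 1 library and were not tested.

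The 3 Toll-like receptors outside the set were at low levels. Tlr11, which senses profilin of parasites, was at 6.71, 10.4 and 9.38 CPM in healthy blood, 4.91, 2.33 and 3.80 in LLC blood, against 0.452, 0.532 and 0.714 in LLC tumor. It fell by 1.27 on the log2 scale from healthy to LLC blood (edgeR adjusted p = 0.0138) and by 2.66 from LLC blood to LLC tumor (adjusted p = 0.000205), with no overlap at either step. The first call was lost on leaving out any one of healthy blood 2 and 3 and LLC blood 2 and 3, at values of -1.29 to -1.03. Tlr3, the endosomal sensor of paired RNA strands, was at 4.37 ± 0.772, 3.55 ± 0.724 and 5.55 ± 2.15 CPM and passed the test in none of the 3 comparisons. Tlr12 was at 1.01 CPM or below in every library and was not tested.

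Proteins that help surface receptors bind their ligands did not share one direction. In LLC blood against healthy blood 1 of the 5 partner genes rose and 3 fell, and in LLC tumor against LLC blood again 1 rose and 3 fell. Of all tested genes, 14% rose and 9.61% fell in the first of these comparisons, and 29.6% rose and 31.7% fell in the second. Cd36, a scavenger receptor that works with Tlr2 and Tlr6, was at 41.2 ± 5.20 CPM in healthy blood, 7.17 ± 1.48 in LLC blood, against 44.9 ± 17.1 in LLC tumor. Its log2 fold change was -2.54 ± 0.28 (edgeR adjusted p = 0.000413) at the first step and 2.66 ± 0.28 (adjusted p = 3.63e-05) at the second. Cd180, a relative of Tlr4 that lacks the signalling domain, was at 167 ± 13.3 and 162 ± 6.96 CPM in the blood groups and at 51.8 ± 17.0 in LLC tumor (-1.65 ± 0.19 against LLC blood, adjusted p = 5.69e-05). Ly86, the partner of Cd180, fell at both steps, from 384 ± 12.5 through 245 ± 2.25 to 94.8 ± 22.1 CPM (-0.65 and -1.37). Ly96 and Lbp, partners of Tlr4, were added after their values were seen. Ly96, which binds lipopolysaccharide together with Tlr4, was at 15.5 ± 1.61, 11.0 ± 0.389 and 11.4 ± 2.17 CPM and was not called in LLC tumor against LLC blood (0.05, adjusted p = 0.789), whereas its fall of 0.49 in LLC blood (adjusted p = 0.0388) was lost without healthy blood 1, healthy blood 3 or any LLC blood library. Lbp, the serum-type lipopolysaccharide binding protein, was at 5.93 to 9.36 CPM in healthy blood, 18.6 to 29.7 in LLC blood and 4.86 to 11.5 in the tumor, a rise of 1.69 (adjusted p = 0.00425) and then a fall of 1.58 (adjusted p = 0.00160).

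Genes that carry endosomal receptors to their place, cut them or feed and clear their ligands were tested as a list of 12, of which 11 passed the filter. With edgeR on all 9 libraries, 0 of 11 were called in LLC blood against healthy blood, with 3 at an unadjusted p under 0.05 and log2 fold changes between -0.35 and 0.29. DESeq2 also called 0, but limma-voom called 5 and edgeR on only the 6 libraries compared called 6. Unc93b1 and Pld3 were each called lower in 6 of 21 alternatives, among them library totals (-0.27, adjusted p = 0.0223, and -0.32, adjusted p = 0.0403) and the replicate block (-0.30, adjusted p = 0.00386, and -0.36, adjusted p = 0.0224), and Slc15a3 in 1 of 21 (-0.16, adjusted p = 0.0444). Between LLC blood and LLC tumor 10 of 11 were called, 5 higher and 5 lower, where 61.3% of all tested genes were called, 29.6% higher and 31.7% lower. Lgmn, an endosomal protease that cuts these receptors, was at 159.9 ± 8.17, 169 ± 6.43 and 1129 ± 445 CPM (2.74 ± 0.23 in LLC tumor against LLC blood, edgeR adjusted p = 9.75e-06). Slc15a3, an endolysosomal transporter of peptides, rose by 2.35 ± 0.23 and the nuclease Pld3 by 2.30 ± 0.14 in the same comparison. Unc93b1, the chaperone that all endosomal receptors need to leave the endoplasmic reticulum, was added after its values were seen, as were the other genes of this list that follow it. It was at 958 ± 22.0, 781 ± 37.9 and 424 ± 81.2 CPM, a fall of 0.88 from LLC blood to LLC tumor (SE 0.13, adjusted p = 0.000288). Slc15a4, a transporter related to Slc15a3, fell by 1.51 (adjusted p = 2.35e-05) and Pld4, a nuclease related to Pld3, by 1.10 (adjusted p = 3.41e-05), so each of these pairs held a gene that rose and a gene that fell. The rest of the called genes were Hsp90b1 (0.66), a folding chaperone of these receptors, and Ap3b1 (0.30), higher, and Cnpy3 (-0.55) and Rnaset2b (-0.81), lower.

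Of the 6 adaptor genes 5 were tested, and 3 rose in LLC blood, where 14% of all tested genes did. The 3 were Myd88, the adaptor of nearly all these receptors, Tirap, which brings Myd88 to Tlr2 and Tlr4, and Pik3ap1, which links the receptors to PI3 kinase. Myd88 was at 237 to 271 CPM in healthy blood, 308 to 354 in LLC blood, against 124 to 173 in LLC tumor. It rose by 0.40 ± 0.12 (edgeR adjusted p = 0.0423) and then fell by 1.16 (SE 0.12, adjusted p = 3.78e-05). The 3 blood calls were lost on leaving out single libraries: Myd88 without any of the 3 healthy libraries, LLC blood 2, LLC blood 3 or LLC tumor 3 (0.35 to 0.40), Tirap without any one of healthy blood 2 and 3 and LLC blood 2 and 3 (0.31 to 0.37), and Pik3ap1 without any healthy library, LLC blood 2 or LLC blood 3 (0.54 to 0.62). At the step from LLC blood to LLC tumor all 5 were called, 2 higher and 3 lower. Of all tested genes 61.3% were called there, 29.6% higher and 31.7% lower. Pik3ap1 rose again, by 0.71 ± 0.17 (adjusted p = 0.00586), while Tirap fell by 0.50 (adjusted p = 0.00157) and Ticam2, which carries the interferon arm of Tlr4 signalling, fell by 1.26 (adjusted p = 9.12e-06). Ticam2 was not called in LLC blood against healthy blood, but 8 of 21 alternatives called it higher, DESeq2 among them (0.30, adjusted p = 0.0440). Ticam1, the other gene that rose, is named after its value was seen (0.46, adjusted p = 0.0211).

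Among the 18 kinases and ubiquitin ligases that relay the signal, 4 rose and none fell in LLC blood, a share close to the 23.6% called over all tested genes. DESeq2 called 7 of the 18 in that comparison, limma-voom 11 and edgeR on only the 6 libraries compared 8. In LLC tumor against LLC blood 7 rose and 7 fell, where 61.3% of all tested genes were called. Irak4, the first kinase recruited by Myd88, was at 79.3 ± 3.99 CPM in healthy blood, 113 ± 6.69 in LLC blood, against 41.8 ± 1.84 in LLC tumor (0.51 ± 0.07, edgeR adjusted p = 0.00169, then -1.43 ± 0.08, adjusted p = 6.34e-07). Irak2, which sustains signalling later on, was at 74.7 ± 3.63, 50.1 ± 3.79 and 180.3 ± 62.1 CPM and rose by 1.85 ± 0.20 at the second step (adjusted p = 4.62e-05). Its first step, at -0.58 (edgeR adjusted p = 0.0654), was called lower in 9 of 21 alternatives, among them DESeq2 (-0.59, adjusted p = 0.0249), library totals (-0.55, adjusted p = 0.0183), only the 6 libraries compared (-0.59, adjusted p = 0.000547) and the replicate block (-0.59, adjusted p = 0.00104). Ikbke, an IKK-related kinase of the interferon arm, rose by 0.55 ± 0.10 (adjusted p = 0.00440) and by 0.38 ± 0.10 (adjusted p = 0.00754). The latter call was lost, at 0.18, when libraries were scaled by their totals. Ikbkb, the main catalytic subunit of IKK, fell by 1.04 in LLC tumor against LLC blood (adjusted p = 3.8e-06), and Ikbkg, its scaffold subunit, rose by 0.35 in LLC blood (adjusted p = 0.0112), a call lost at 0.33 without LLC blood 2. Map3k7, the kinase that activates IKK, is named after its values were seen as the fourth gene that rose in LLC blood (0.29, adjusted p = 0.0145), and it fell by 0.35 in the tumor comparison (adjusted p = 0.00137).

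Of the 3 interferon regulatory factors, Irf3 alone was called at each of these 2 steps, both times lower, in the edgeR fit to all 9 libraries. Of all tested genes, 9.61% and 31.7% were called lower at these steps. At the first step DESeq2, limma-voom and edgeR on only the 6 libraries compared each called all 3. Irf3 was at 75.9 ± 2.87, 62.4 ± 4.18 and 40.7 ± 2.35 CPM, with log2 fold changes of -0.28 ± 0.08 (edgeR adjusted p = 0.0280) and -0.61 ± 0.08 (adjusted p = 0.000134). The blood call was lost at -0.23 to -0.30 without healthy blood 1, healthy blood 3, LLC blood 2 or LLC blood 3. Of the 5 genes that restrain the pathway, 1 fell in LLC blood, where 9.61% of all tested genes did. There limma-voom called 3 of the 5 in either direction and the 6 libraries compared 4. In LLC tumor against LLC blood 3 of the 5 rose and none fell. This count is near the 61.3% of all tested genes called there, of which 29.6% of all tested genes were higher. Tnfaip3, an enzyme that removes ubiquitin chains from the relay, was at 45.6 to 48.8 CPM in healthy blood, 25.2 to 38.5 in LLC blood, against 242 to 993 in LLC tumor, with the highest value in LLC tumor 1 (4.13 ± 0.51 from LLC blood, 17.5-fold, adjusted p = 9.59e-05). Without LLC tumor 1 this value was 3.29 (adjusted p = 4.94e-07). Its difference between the blood groups, -0.66 (adjusted p = 0.339), was called in 4 of 21 alternatives, at -0.68 to -0.81. Tollip, which holds Irak kinases inactive, rose by 0.75 ± 0.15 (adjusted p = 0.00155). Socs1, named after its values were seen, was the gene that fell in LLC blood (-1.44, adjusted p = 0.00875) and the third that rose in LLC tumor (2.29, adjusted p = 0.000154).

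**Figure D4:**
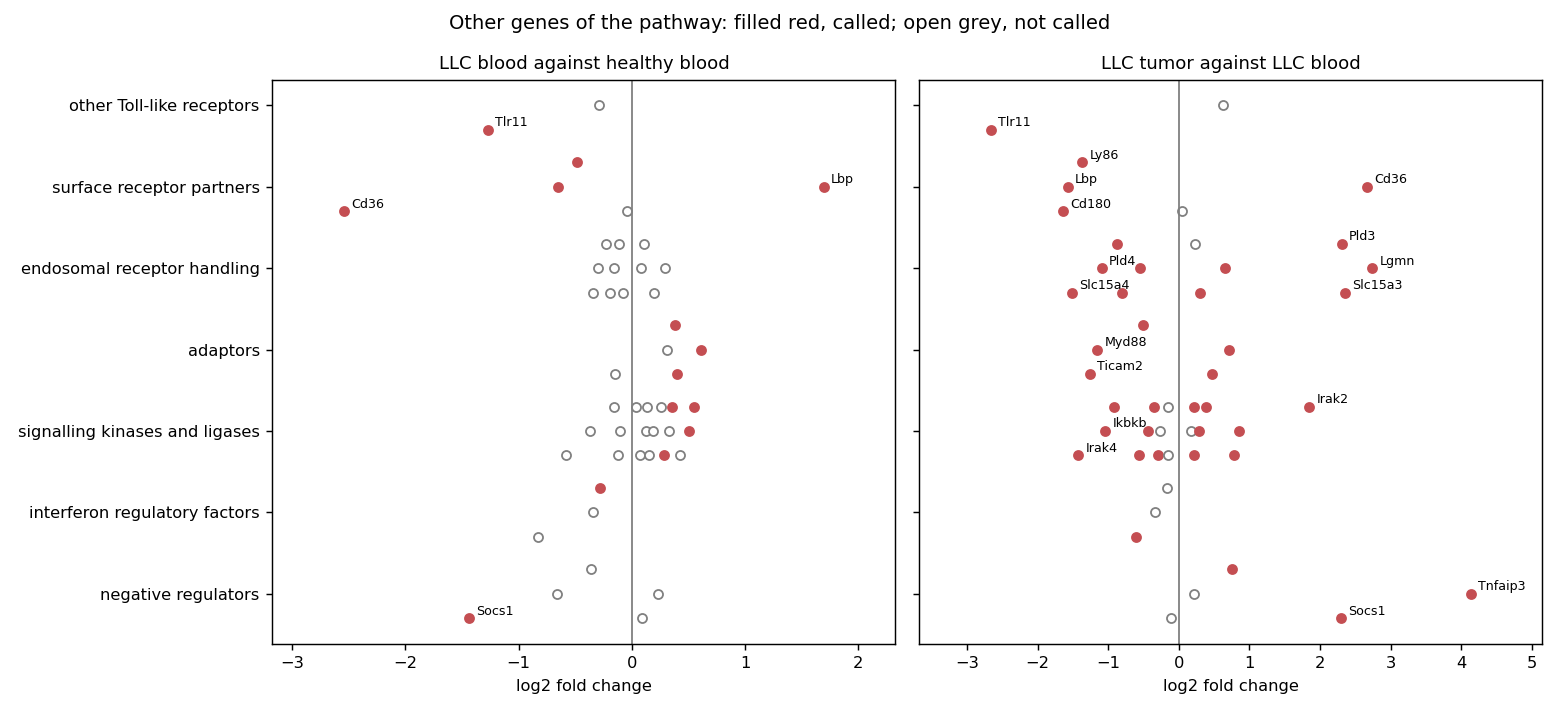
Log2 fold change of the other genes of the pathway (52 genes in 7 lists, those that passed the filter) in LLC blood against healthy blood (left) and LLC tumor against LLC blood (right), 1 row of points per list; filled points were called at adjusted p under 0.05, open points were not, and called genes with a change of at least 1 are labelled. In the tumor comparison the farthest point to the right is Tnfaip3, at 4.13.

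Last, the genes closest in course to the member of each role with the highest mean level were sought among 6912 tested genes, by Pearson r of log2(CPM + 1) over the 9 libraries. For Cd14 these were Net1, Pfkl and Cdkn1a, each at r = 0.999. Net1 averaged 7.66 CPM over the healthy libraries, 7.03 in LLC blood and 84.6 in the tumor, Pfkl, a glycolytic enzyme, 47.9, 49.9 and 313, and Cdkn1a, a cell cycle inhibitor, 37.1, 34.2 and 684. For Tlr2 they were Tatdn2 (0.997), Cstb (0.997) and Bcl2l11 (0.996), and for Tlr13 Ranbp6 (0.992), Fuca2 (0.974) and Bak1 (0.970). Ranbp6 averaged 21.1, 27.8 and 17.6 CPM, with its highest mean in LLC blood as for Tlr13. These likenesses are descriptions over 9 libraries in 3 groups, in which any gene that differs between tumor and blood resembles the others that do.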

How the data were processed

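RNA-seq of 9 libraries was used; the other 22 of the 31 samples (chromatin assays) were not analysed here. The authors deposited an expected count (an estimated count, not normalized) for each gene symbol and library, in a table in which 8.56% to 9.73% of the values per library were not whole, and a table of CPM values for 10693 of these genes. The submitters' processing notes name mm10, Trim Galore, cutadapt, STAR, Salmon and edgeR among their tools; which tool made the counts, the annotation and the strand setting are not given in the sources used here. Column heads of blood libraries carry the letters BM, which can stand for bone marrow; they are read here as blood monocyte because titles, tissue and sorting protocol of these samples, per the labels, all name blood, and no test of the values settles the reading.

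Counts were rounded. edgeR 4.0.16 (R 4.3.3) was fitted to all 9 libraries with group as the only term (quasi-likelihood test, TMM, filterByExpr), which kept 12337 of 18544 genes with a count. P-values were adjusted by Benjamini-Hochberg over all tested genes of a comparison, with 0.05 as the limit for a call. The script was checked on simulated counts. Levels are counts divided by library total times TMM factor, given as CPM. From the deposited CPM values, whole reads were recovered for 100% of the values (within 0.01 reads). They equalled the rounded counts for 100% of the values in each library, so they are the same data for 10693 genes. The count test on these genes called 2584 in LLC blood against healthy blood, 6792 in LLC tumor against LLC blood and 7236 in LLC tumor against healthy blood. The count table, with more genes entered, gave 2917, 7566 and 8208. Total counts limit precision through counting error only in part, as replicate libraries also differ (Pearson r between libraries of a group 0.967 to 0.997). The labels do not say that the RNA libraries came from separate animals, so p-values measure the spread between these libraries. No batch is labelled, and a batch that went with a group cannot be told apart from it.

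Named genes were all members, Tlr3, Tlr11 and Tlr12, and from each of the other lists at most the 3 called genes of largest change in each of the first 2 comparisons with a mean of at least 20 CPM; for Cd14, Tlr2 and Tlr13 the 3 genes of most similar course were added. Members, lists, motifs and rules were chosen with earlier results of these data known. Promoter windows and gene positions are from RefSeq, GRCm38.p6. Alternatives used RLE, upper-quartile or no scaling factors, no filter, DESeq2 1.42.0, limma 3.58.1 (voom with quality weights), only the 6 libraries compared, a replicate block, stricter thresholds and leaving out each library; the sum of Tlr1 and Tlr6 was added after seeing the data.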

Additional observations from a re-analysis of the deposited data

How the results depend on the processing

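For single members there were 208 alternative results per comparison. Direction and call held for 187 in LLC blood against healthy blood. They held for 199 in LLC tumor against LLC blood and 184 in LLC tumor against healthy blood. Not all of these are refits, as the stricter thresholds were put on the unchanged main fit. The results also include the fit with Tlr1 and Tlr6 summed. Members called were 4 to 6 in the first comparison when each library was left out in turn, 9 to 10 in the second and 6 to 8 in the third, and 2 in the first where a change of at least 1 (log2) was also required. The log2 ratio of surface to endosomal receptors in LLC blood against healthy blood (-0.01) turned to 0.22 with means of log2(CPM + 1) and 0.29 without Tlr2 and Tlr13, and spanned -0.045 to 0.014 with a library left out (0.014 without healthy blood 3, 0.00097 without LLC blood 3). LLC tumor against LLC blood gave 1.91 and 1.96 under the first 2 settings and 2.11 to 2.19 with a library left out; against healthy blood it gave 2.26 without Tlr2 and Tlr13, and 2.10 to 2.18. The cause was not tested.

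Values near 0 changed sign. In LLC blood against healthy blood, Tlr2 was 0.022 on library totals, 0.0052 with limma-voom and 0.048, 0.026 and 0.0017 without healthy blood 3, LLC blood 1 and LLC blood 2 (-0.072 to 0.048 with a library left out); Cd14 was -0.024 with upper-quartile factors and -0.072 and -0.025 without healthy blood 3 and LLC tumor 1 (range -0.072 to 0.100); Cd180 was 0.019 without healthy blood 3. In LLC tumor against LLC blood, Ly96 was -0.0024 with upper-quartile factors, -0.16 on library totals, -0.015 without a filter, -0.093 with limma-voom and -0.084 without LLC tumor 1 (range -0.084 to 0.14). In LLC tumor against healthy blood, Tlr13 was 0.030 without LLC tumor 2 (range -0.51 to 0.030), Tlr3 was -0.040 without LLC tumor 1 (range to 0.50), Cd36 was -0.076 on library totals, -0.34 with limma-voom and -0.20 without LLC tumor 1 (range to 0.38), and Lbp was -0.018 on library totals and -0.076 and -0.15 without healthy blood 3 and LLC tumor 2 (range to 0.36).

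Tlr13 in LLC tumor against LLC blood became called in 6 of 21 alternatives, among them library totals (-0.75). Over all genes, 2917 were called in LLC blood against healthy blood, and 5884 with limma-voom, 4889 with only the 6 libraries compared, 1386 at adjusted p under 0.01, 769 with a change of at least 1 (log2), and 1494 to 5064 with a library left out (5064 without LLC tumor 1). LLC tumor against LLC blood fell from 7566 to 3538 and against healthy blood from 8208 to 3989 at that size. Of the called genes, 59.4% were higher in LLC blood with TMM and 46.3% with upper-quartile factors; on library totals the higher share went from 48.3% to 36.3% in LLC tumor against LLC blood, where the median of all genes was -0.23, and from 50.4% to 40.6% against healthy blood (median -0.17).

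Same-numbered libraries did not deviate together in every pair (r from -0.11 to 0.30), and in no comparison did every library correlate best with its own number. With 3 libraries a group this cannot decide whether same-numbered LLC blood and LLC tumor libraries came from the same mice. The labels do not say so, and the main fit used no pairing. A fit with the replicate number as a block, on the 6 libraries compared, called 4820, 6556 and 7132 genes.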
